A study of Mus musculus with 3 samples.

Results

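Alpha-beta T cells are the lymphocytes whose antigen receptor pairs an alpha with a beta chain, and they were rare among the droplets captured from healing mouse skin. They were chosen by measured values, namely the counts of 11 genes in each cell barcode. A barcode was kept when it held at least 500 unique molecular identifiers (UMIs), the tags that let copies of 1 mRNA molecule be counted once, at least 200 genes and at most 10% mitochondrial UMIs. It also needed at least 1 UMI of *Cd3d*, *Cd3e* or *Cd3g*, which encode signalling chains of the receptor complex, and at least 1 UMI of *Trac* or *Trbc2*, the constant regions of the alpha and beta chains. Barcodes with *Trdc*, the constant region of the delta chain, were left out, as were those with 0.8% or more of their UMIs from *Lyz2*, *C1qa* and *C1qb* (macrophage genes) or 1% or more from *Dcn* and *Col1a2* (fibroblast genes). This gate held 102 of 21568 barcodes on Day 7 (0.473%, 95% interval 0.386 to 0.574) and 91 of 14472 on Day 14 (0.629%, 0.507 to 0.771), or 193 of the 40492 barcodes of the series that passed the quality limits.

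The samples were full-thickness wounds of the dorsal skin of adult male C57BL/6J mice, an inbred wild-type strain, with no other treatment, collected 3, 7 and 14 days after wounding. The study asked which cells take part in repair and how they change over its course. Each day was 1 library of unsorted cells pooled over several wounds; the tissue was dissociated with enzymes. The Day 3 library held 1 gated barcode of 4452 and was not described further.

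With 1 library per day there is no replicate, so no difference between days was tested, and a ratio of days compares 2 libraries. The 95% intervals, given after a value, reflect counting error alone. They are exact binomial (Clopper-Pearson) for shares, exact Poisson for levels and exact conditional binomial for ratios. Levels are in CPM, the UMIs of a gene scaled to the total UMIs of the summed barcodes. The 102 gated barcodes of Day 7 held 246477 UMIs, with 522 to 7460 per barcode and a median of 2044.5. The 91 of Day 14 held 234768 UMIs, with 630 to 10383 per barcode and a median of 2305. All other barcodes were deeper, with medians of 3527.5 and 6345 UMIs. The abundant transcript *Gm42418* took 17.7% of the gated UMIs on Day 7 and 7.98% on Day 14, against 11.5% and 6.24% in all other barcodes, and its part in the day differences was not tested beyond the scaling given with them. Between the Day 7 and Day 14 libraries 111 barcode sequences were shared, of which 1 belonged to a gated barcode, and no barcode was gated on both days.

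As background, helper T cells carry the co-receptor CD4 and act mainly through cytokines and surface ligands, while cytotoxic T cells carry CD8 and kill target cells. Helper cells are classed by a leading transcription factor, such as *Tbx21* (T-bet) for type 1, *Gata3* for type 2, *Bcl6* for follicular helpers and *Foxp3* for regulatory T cells, which restrain inflammation. Skin holds many regulatory T cells, which in the mouse often carry *Gata3*, the IL-33 receptor *Il1rl1* and the epidermal growth factor receptor ligand *Areg*. Mouse skin also holds gamma-delta T cells, with a different receptor.

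The receptor genes used by the rule were thinly sampled in each barcode. *Trac* was found in 62 of 102 barcodes on Day 7 and 68 of 91 on Day 14, and *Trbc2* in 81 and 64. *Cd3e* was found in 43 and 48. A single UMI of *Cd3d*, *Cd3e* and *Cd3g* together let 24 barcodes in on Day 7 and 18 on Day 14, and a single UMI of *Trac* and *Trbc2* together let in 33 and 26. Only 7 and 10 barcodes stood on a single UMI of both kinds, and 52 and 57 had at least 2 of each. At the macrophage limit, the highest share inside was 0.655% on Day 7 and 0.741% on Day 14, and the lowest outside was 0.812% and 0.889%. At the fibroblast limit, the highest inside was 0.575% and 0.711% and the lowest outside was 1.10% and 1.63%.

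Receptor genes that the rule did not use were checked next. *Trbc1*, the other beta constant region, was found in 33 of 102 barcodes on Day 7 (32.4%, 23.4 to 42.3) and 32 of 91 on Day 14 (35.2%, 25.4 to 45.9), against 0.325% and 0.366% of fibroblast barcodes, defined as those with at least 1% of UMIs from *Dcn* and *Col1a2*. The share in fibroblast barcodes was taken as a reference for RNA from other cells in a droplet, and it can also include doublets or expression by the fibroblasts. It was measured at greater depth, with median UMIs of 10346 and 10285.5. Variable segments of the alpha chain were read in 6 and 11 gated barcodes and those of the beta chain in 5 and 6. Variable segments of the gamma chain were read in 0 barcodes on both days, and those of the delta chain in 1 on Day 7 and 0 on Day 14. *Tcrg-C1*, a constant region of the gamma chain, was read in 3 gated barcodes on each day. Of the 50 barcodes of Day 14 that met every other limit but held *Trdc*, delta segments were read in 42. Gamma segments were read in only 9 of the 50, so their absence from the gate says little. Of these 50, 32 also held *Trbc1*, so *Trbc1* reads did not set the gate apart from them. *Trbc2* was read in 45, which follows from the limits, since each needed *Trac* or *Trbc2* and only 9 held *Trac*. In these 50, segments of the alpha and of the beta chain were read in 0. Only 3 barcodes of Day 7 held *Trdc* at the same limits, of which 1 had an alpha, 2 a beta, 1 a gamma and 2 a delta segment.

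A minority of the gated barcodes also carried markers of macrophages and dendritic cells, most of which the rule did not limit. The sum was taken over 24 markers of these cells, of which 3 were the macrophage genes that the rule limited. Over this sum, the median gated barcode had 0.169% of its UMIs on Day 7 and 0.0923% on Day 14. However, 12 barcodes on each day had at least 1%, up to 2.94% on Day 7 and 8.87% on Day 14, with the lowest of them at 1.07% and 1.19% and the next barcodes below at 0.734% and 0.895%. These barcodes were deep, with median UMIs of 4016.5 and 3915 against 1825.5 and 2012 for the rest. They held 80.7% of the *Cd74* UMIs of the gate on Day 7 and 96.3% on Day 14, *Cd74* being the invariant chain of MHC class II. These shares follow in part from the choice of the barcodes by markers of cells that carry class II genes. *Foxp3* was found in 5 of the 12 on Day 7 and 2 of the 12 on Day 14. A doublet score called 1 of the 102 gated barcodes on Day 7 and 1 of 91 on Day 14, in each case among these 12. Whether such barcodes hold more than 1 cell was not tested further. Without them, *Cd4* was found in 35 of 90 barcodes on Day 7 and 28 of 79 on Day 14, *Gata3* in 45 and 30, *Ctla4* in 57 and 33 and *Icos* in 59 and 58, and some further values without them are given below.

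**Figure D1:**
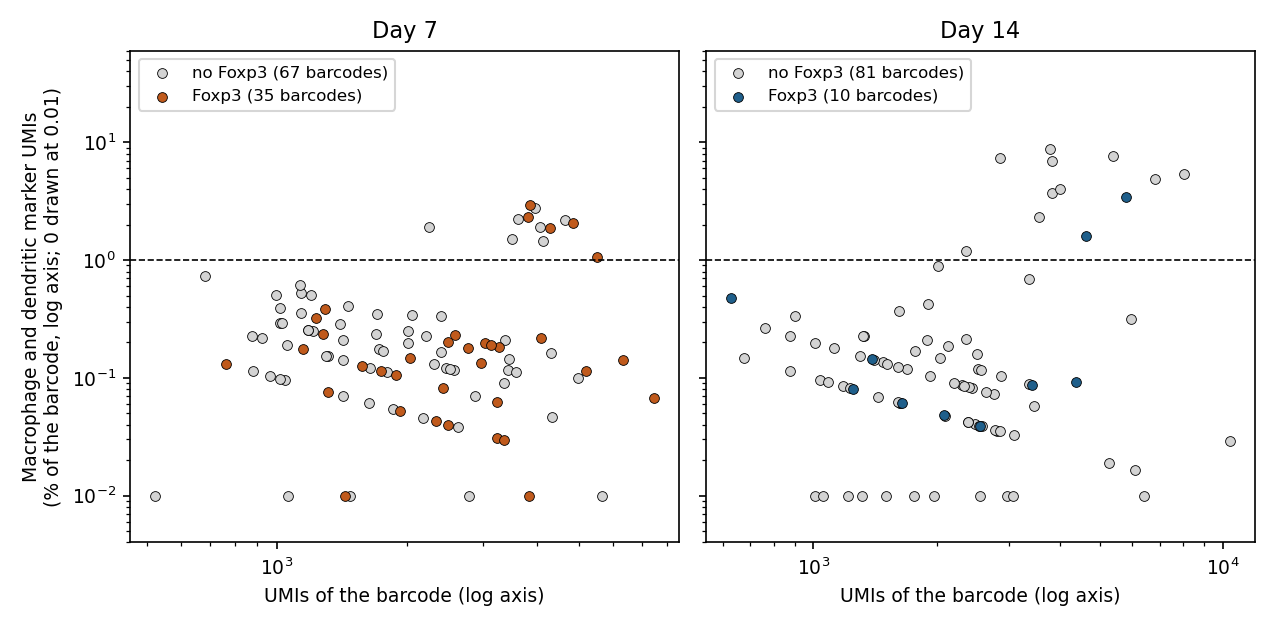
Each point is 1 gated barcode, with its UMIs on the horizontal log axis and the percent of them from 24 macrophage and dendritic cell markers on the vertical log axis (0 drawn at 0.01), for Day 7 and Day 14. Coloured points hold *Foxp3* and grey ones do not, and 12 barcodes of each day lie above the dashed line at 1%.

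*Cd4* was found equally often on both days, and *Cd8* was rare. *Cd4* was present in 37 of 102 barcodes on Day 7 (36.3%, 27.0 to 46.4) and 33 of 91 on Day 14 (36.3%, 26.4 to 47.0), at levels of 231 CPM (175 to 300) and 209 CPM (154 to 276). In fibroblast barcodes the shares were 0.649% and 0.593%. *Cd8a* or *Cd8b1*, the chains of CD8, was found in 4 barcodes on Day 7 (3.92%, 1.08 to 9.74) and 8 on Day 14 (8.79%, 3.87 to 16.6), with overlapping intervals. Of these, 1 barcode on each day also held *Cd4*. The level of *Cd8b1* was 2 UMIs on Day 7 and 14 UMIs on Day 14. Of the 8 *Cd8* barcodes of Day 14, 3 were among the 12 with macrophage and dendritic cell markers, and these 3 held 7 of the 14 UMIs of *Cd8b1*. Without the 12 of each day, *Cd8* was found in 3 of 90 barcodes (3.33%, 0.693 to 9.43) and 5 of 79 (6.33%, 2.09 to 14.2). After thinning to 1000 UMIs, the Day 14 share of *Cd8* was 7.06% in the whole gate and 2.74% without the 12, each from its own random draw of UMIs. Neither co-receptor was read in 62 barcodes on Day 7 and 51 on Day 14. These were the shallower ones, with median UMIs of 1525.5 and 1964 against 3001.5 and 2450.5 for barcodes with *Cd4* alone, so absence of both reads does not show a cell without a co-receptor.

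*Foxp3* was found in 35 of 102 barcodes on Day 7 (34.3%, 25.2 to 44.4) and 10 of 91 on Day 14 (10.99%, 5.40 to 19.3), and the intervals did not overlap. It was held at 1 UMI by 20 barcodes on Day 7, at 2 by 7 and at 3 or more by 8, and on Day 14 these numbers were 6, 3 and 1. Its level was 256 CPM on Day 7 (196 to 327) against 63.9 CPM on Day 14 (35.8 to 105). In fibroblast barcodes *Foxp3* was found in 0.257% and 0.101%, and the gated shares lay above these. After each barcode was thinned to 1000 UMIs, which left out 8 and 6 shallower ones, the shares were 19.1% (11.8 to 28.6) of 94 and 5.88% (1.94 to 13.2) of 85. The Day 14 share stayed below that of Day 7, now with overlapping intervals, and at 500 UMIs the shares were 10.8% (5.51 to 18.5) and 5.49% (1.81 to 12.4). Without the 12 barcodes of each day that carried macrophage and dendritic cell markers, *Foxp3* was found in 30 of 90 (33.3%, 23.7 to 44.1) and 8 of 79 (10.1%, 4.47 to 19.0).

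*Foxp3* and *Cd4* were often read together on Day 7. Among barcodes with *Cd4*, 19 of 37 held *Foxp3* on Day 7 (51.4%) and 4 of 33 on Day 14 (12.1%). A further 16 *Foxp3* barcodes on Day 7 and 5 on Day 14 had neither co-receptor read. *Ctla4*, an inhibitory receptor that is abundant in regulatory T cells, was read in 35 of the 37 *Cd4* barcodes of Day 7 (94.6%) and 15 of the 33 of Day 14 (45.5%). Thus nearly every *Cd4* barcode of Day 7 held *Ctla4*, whether or not *Foxp3* was read in it. *Cd4* barcodes were deeper than the gate as a whole, with median UMIs of 3037 against 2044.5 on Day 7 and 2512 against 2305 on Day 14. The part of depth in these joint reads was not tested.

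**Figure D2:**
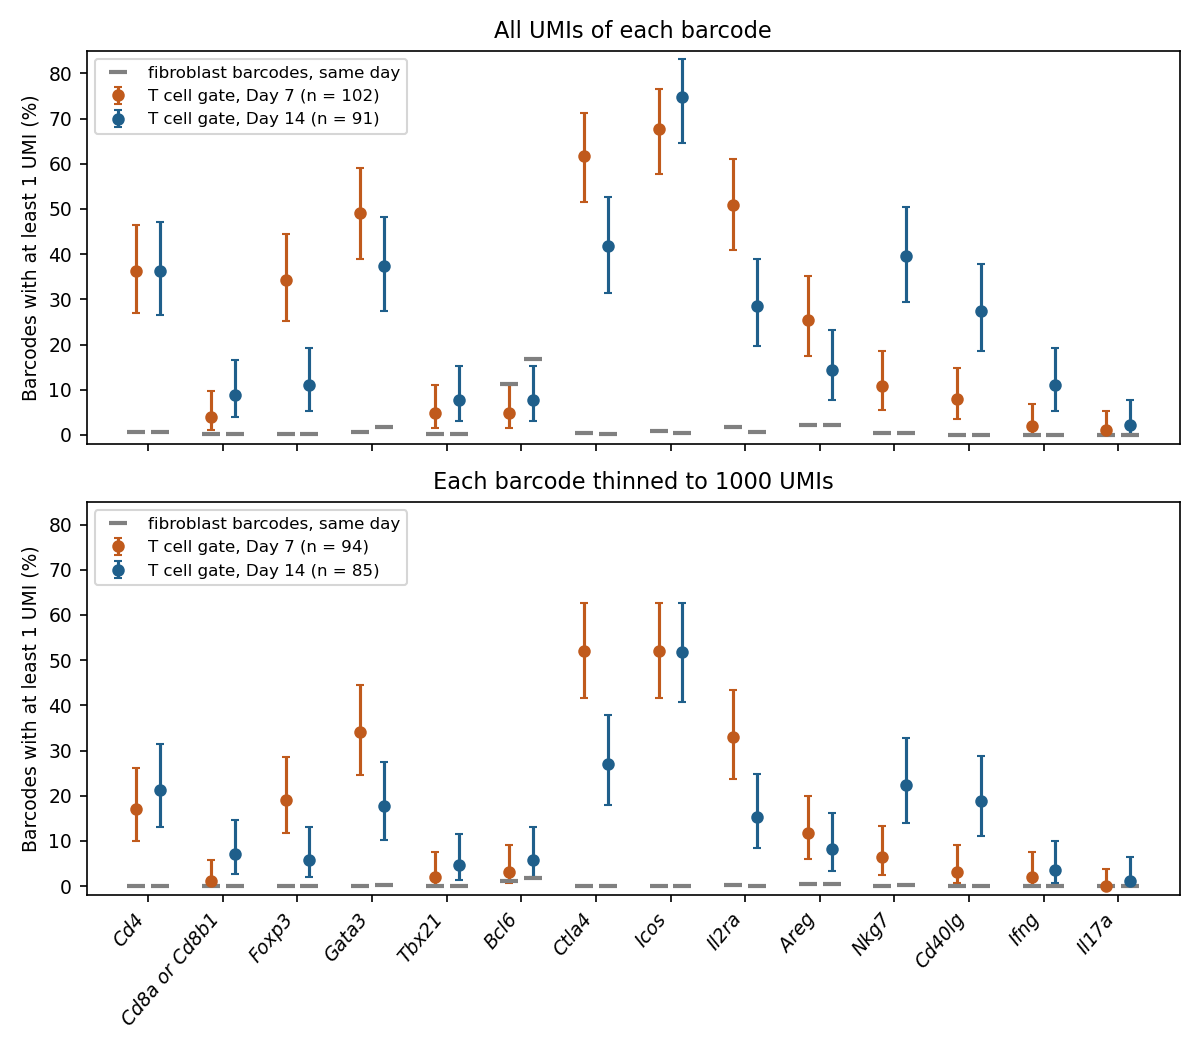
Percent of gated barcodes with at least 1 UMI of each gene on Day 7 and Day 14, with 95% Clopper-Pearson intervals, over all UMIs (upper panel) and after thinning to 1000 UMIs (lower panel), with grey dashes for fibroblast barcodes of the same day. *Foxp3*, *Ctla4* and *Il2ra* lie higher on Day 7 and *Nkg7* and *Cd40lg* higher on Day 14 in both panels, while *Cd4* lies level.

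Of *Gata3*, *Tbx21*, *Bcl6* and *Foxp3*, *Gata3* was read most often on both days. It was found in 50 of 102 barcodes on Day 7 (49.0%, 39.0 to 59.1) and 34 of 91 on Day 14 (37.4%, 27.4 to 48.1), at 454 CPM (374 to 547) and 226 CPM (169 to 295). Most *Foxp3* barcodes held it too, 24 of 35 on Day 7 (68.6%) and 8 of 10 on Day 14. *Gata3* without *Foxp3* was read in 26 barcodes on each day. *Tbx21* was found in 5 and 7 barcodes, and no barcode held it together with *Foxp3*. With *Foxp3* in 34.3% and 10.99% of the gate, these counts are too few to show that the genes exclude each other. *Bcl6* was found in 5 and 7 barcodes, a share of 4.90% and 7.69% that was below the 11.2% and 16.8% of the deeper fibroblast barcodes. At matched depth the order was the other way: after thinning, 3.19% (0.663 to 9.04) and 5.88% (1.94 to 13.2) of gated barcodes held it, against 1.22% and 1.73% of fibroblast barcodes, and no expression was read from these counts.

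Helper cytokines were sparse at this depth. *Ifng*, the type 1 cytokine interferon gamma, was found in 2 barcodes on Day 7 and 10 on Day 14 (1.96%, 0.238 to 6.90, and 10.99%, 5.40 to 19.3). None of the 10 held *Foxp3*, itself read in 10.99% of the Day 14 gate, and the count is too small to show exclusion. After thinning the counts were 2 and 3. *Il17a* was found in 1 and 2 barcodes, *Il5* in 1 and 1, *Il13* in 0 and 1 and *Il2* in 0 and 2. *Il4*, *Il21* and *Il22* were found in 0 of 102 and 0 of 91, and a limit of 3 barcodes for a count of 0, a simpler rule than the Clopper-Pearson intervals, allows shares of up to 2.94% and 3.30% of barcodes with a UMI. *Areg* was read more often, in 26 barcodes on Day 7 and 13 on Day 14, at 288 CPM and 102 CPM. On Day 7, 18 of the 26 *Areg* barcodes held *Cd4* and no *Cd8*, and on Day 14 this was so for 4 of the 13. *Il10* was found in 7 and 1 barcodes, and the single barcode of Day 14 (1.10%) was below the 1.97% of fibroblast barcodes. The latter were deeper, with median UMIs of 10285.5 against 2305, so the order at matched depth is not known from these shares.

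Set against all other barcodes of the same library, the gate stood out by genes of T cell identity. Since the gate was cut from these same cells, these ratios are a description. All other barcodes include, on each day, those left out for *Trdc* or for lack of *Trac* and *Trbc2*. The genes tested, here and below, are those with at least 50 CPM in either set and 10 UMIs in all, and no p-value is attached to them. Of 3797 such genes, 947 (24.9%) were at least 2-fold higher in the gate on Day 7 and 846 (22.3%) at least 2-fold lower. On Day 14 these were 1045 (28.3%) and 792 (21.4%) of 3698. Of the receptor complex and signalling list, 14 of 15 genes tested were 2-fold higher on Day 7 and 16 of 17 on Day 14, with median log2 ratios of 7.21 and 7.06, while the median over all genes tested was 0.26 and 0.40. The member below that fold was *Thy1*, a surface protein shared with fibroblasts, at log2 0.92 and 0.65.

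The 10 genes with the highest ratios by the lower of both days were mainly surface receptors. *Ctla4* led with log2 8.80 on Day 7 and 9.45 on Day 14, followed by *Klrg1* (8.71 and 9.46), an inhibitory lectin-like receptor, and *Foxp3* (8.76 and 8.61). Next came *Cd5* (8.45 and 9.63), which tunes receptor signalling, the unnamed transcript *A430093F15Rik* (8.13 and 8.32) and *Icos* (8.11 and 8.71), a costimulatory receptor. *Tnfrsf4* (OX40), *Cd6*, *Cxcr6* and *Lat*, the adaptor that links the receptor to downstream signals, completed the list with ratios from 7.69 to 9.52. The chemokine receptor *Cxcr6*, which marks lymphocytes resident in tissues, was at 215 and 226 CPM in the gate. Of the regulatory T cell list, 13 of 14 genes tested on Day 7 and 12 of 13 on Day 14 were 2-fold higher in the gate. *Cd44*, an adhesion receptor of activated T cells that fibroblasts and macrophages share, differed little, with log2 0.10 and 0.18. *Klf2*, a regulator of T cell exit from tissue, was lower, with -1.11 and -1.94.

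**Figure D3:**
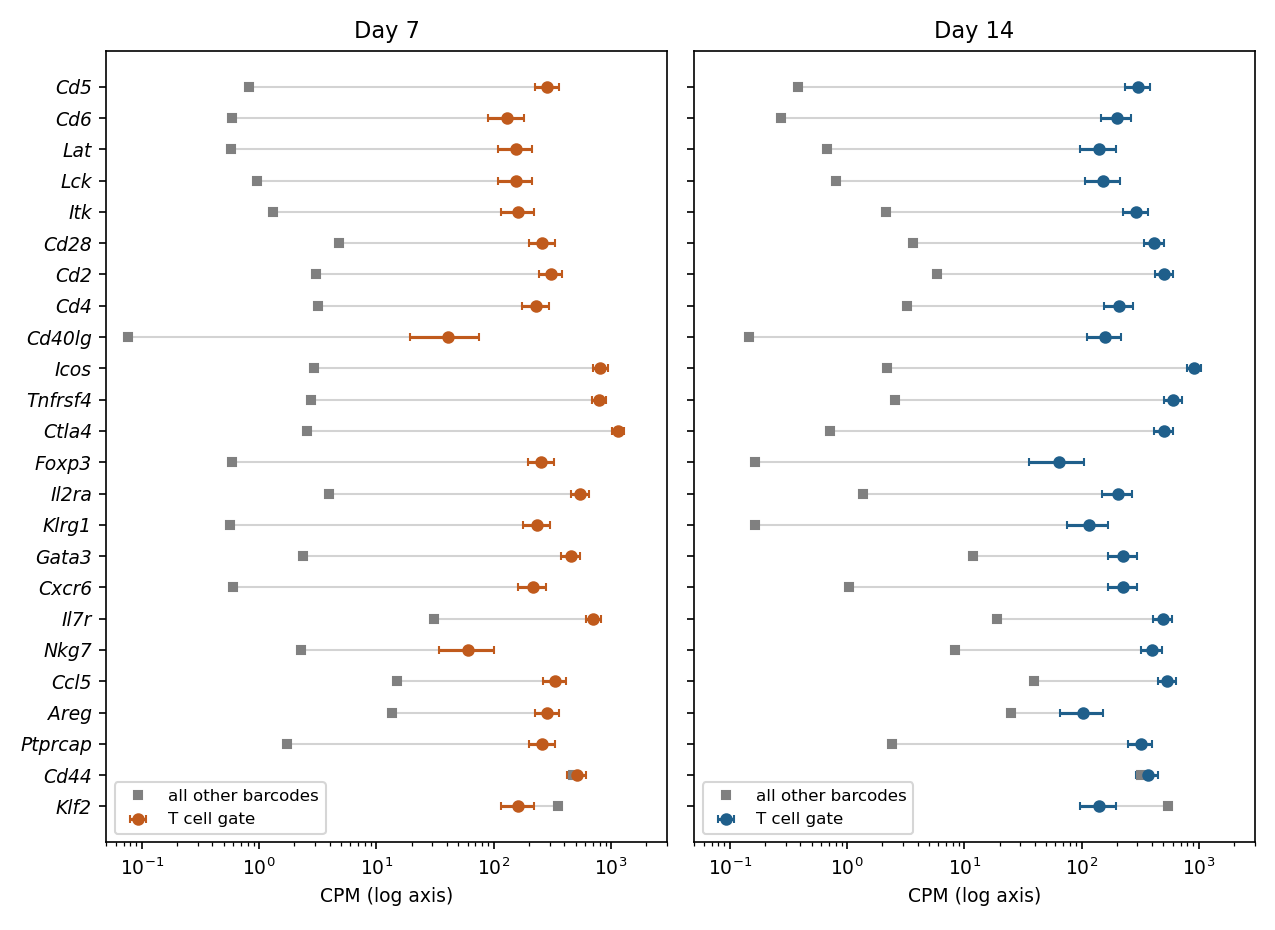
Level of 24 genes in the T cell gate (coloured points, 95% Poisson intervals) and in all other barcodes (grey squares) of Day 7 and Day 14, in CPM on a log axis. The identity, costimulation and regulatory T cell genes lie far above the other barcodes on both days, *Cd44* lies level and *Klf2* lies below.

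Fibroblast and macrophage markers were mostly lower in the gate, and those of some other cell types were not. Of the fibroblast list, 6 of 6 genes tested were 2-fold lower on each day, at a summed level of 3331 CPM against 66729 in all other barcodes on Day 7 and 4421 against 91830 on Day 14. Of the macrophage list, 8 of 9 and 5 of 8 were lower and 0 higher. The dendritic cell list was at 1883 CPM against 3685 in other barcodes on Day 7 and at 10295 against 6005 on Day 14. As given above, these UMIs lay mainly in the 12 barcodes of each day. Without them, the macrophage list summed to 864 CPM on Day 7 and 389 on Day 14 and the dendritic cell list to 328 and 523, levels that follow in part from the choice of the 12 by these same markers. Single members of other lists were higher in the gate. *Ighm*, the heavy chain of IgM, had log2 ratios of 2.51 on Day 7 and 1.30 on Day 14, and *Mbp*, a myelin gene of the Schwann cell list, had 2.08 and 2.40. *Pecam1*, an endothelial adhesion protein, was 2-fold higher on Day 7 (1.27). No mast cell gene had enough UMIs to be tested, and the summed mast cell list was at 32.5 CPM in the gate on Day 7 against 19.6 in other barcodes, and at 17.0 against 44.6 on Day 14.

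Within the gate, 7 of 14 regulatory T cell genes and 4 of 8 proliferation genes were at least 2-fold lower on Day 14 than on Day 7, and 4 of 8 cytotoxic genes were at least 2-fold higher. The other tested members of these lists did not reach a 2-fold difference. Of 3480 genes with at least 50 CPM on either day, 362 (10.4%) were at least 2-fold higher on Day 14 and 401 (11.5%) at least 2-fold lower, and the median gene had a log2 ratio of -0.01. Of the 14 genes of the regulatory T cell list that were tested, 7 were 2-fold lower and 0 higher, with a median of -1.0. This count depends on the scaling: 3 genes were 2-fold lower when the CPM of each barcode were averaged, and 11 when the 50 most abundant genes were left out of the totals. Without the 12 barcodes of each day that carried macrophage and dendritic cell markers, 6 of the list were 2-fold lower. Leaving out the 50 most abundant genes moved the median of all genes to -0.20 and the split to 397 higher and 794 lower.

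*Foxp3* itself had a log2 ratio of -2.0 (-2.92 to -1.17), and in all other barcodes, where it was near 0 on both days (0.588 and 0.163 CPM), the ratio was -1.85. *Il2ra*, the alpha chain of the IL-2 receptor, was at 548 CPM on Day 7 and 204 on Day 14 (-1.42, -1.93 to -0.94), and was read in 52 and 26 barcodes. *Ctla4* was at 1144 and 503 CPM (-1.19, -1.51 to -0.87), in 63 and 38 barcodes. Also lower were *Areg* (-1.49, -2.23 to -0.81) and *Klrg1* (-1.03, -1.75 to -0.35), the latter at -0.72 without the 12 barcodes. All other barcodes, where these genes were low, had ratios of -1.52 for *Il2ra*, -1.84 for *Ctla4* and -1.78 for *Klrg1*, but 0.88 for *Areg*. *Tnfrsf9* (4-1BB), at -0.98, and *Il1rl1*, at -0.96, lay just under the 2-fold limit. *Ikzf2* (Helios), a factor of regulatory T cells, was at 1392 and 835 CPM (-0.74, -0.998 to -0.48). *Icos* was at 815 and 916 CPM, with an interval that held 0 (0.17, -0.12 to 0.45), but its sign depended on the gate: it was at 0.31 (0.00073 to 0.62) without the 12 barcodes of each day, at 0.34 (0.07 to 0.62) with the macrophage and fibroblast limits doubled and at -0.40 (-0.68 to -0.12) when *Trdc* barcodes were kept in. The receptor *Tnfrsf18* (GITR) had an interval that held 0 (-0.34, -0.76 to 0.07).

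The list was also summed within barcodes with and without a *Foxp3* read. Over the regulatory T cell list, *Foxp3* included, the level in *Foxp3* barcodes was 9608 CPM on Day 7 and 9941 on Day 14, and in barcodes without *Foxp3* it was 5945 and 3956. Within *Foxp3* barcodes, *Tnfrsf4* was at 1065 and 1549 CPM and *Icos* at 768 and 1297, while *Ctla4* was at 1555 and 900 and *Il2ra* at 729 and 504. The Day 14 values rest on 10 barcodes, and the difference was not tested. In barcodes without a *Foxp3* read, the Day 14 to Day 7 log2 ratios were -0.91 for *Ctla4*, -1.34 for *Il2ra*, -1.42 for *Areg* and -1.22 for *Il1rl1*. Absence of the read does not show a cell without *Foxp3*, since 20 of the 35 *Foxp3* barcodes of Day 7 held 1 UMI. *Ikzf2* was read in 40 of the 67 barcodes without *Foxp3* on Day 7 and 28 of the 81 on Day 14. How many of them were regulatory T cells was not tested. Of the type 2 list, 3 of 4 genes tested were 2-fold lower on Day 14, but 2 without the 12 barcodes of each day and 1 when *Trbc1* was also counted as a receptor read. *Gata3* had a ratio of -1.01 (-1.51 to -0.53), or -0.71 with *Trbc1* also counted, and *Ccr4*, a receptor for chemokines that draw cells to the skin, was read in 15 barcodes on Day 7 and 3 on Day 14 (-2.67, -5.06 to -0.91). *Maf*, a factor shared by several helper classes and by macrophages, had a ratio of -1.33 (-1.71 to -0.97) in the gate and was lower also in all other barcodes, at 473 and 139 CPM. *Rora* was close to level in the gate, at 933 and 762 CPM.

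Of 8 proliferation genes tested, 4 were 2-fold lower on Day 14 and 0 higher, with a median of -1.12, and 7 were lower when the 50 most abundant genes were left out of the totals. *Mki67*, a marker of cycling cells, was at 406 CPM in 15 barcodes on Day 7 and 63.9 CPM in 6 barcodes on Day 14 (-2.67, -3.56 to -1.88), and 1 barcode held 29 of its 100 UMIs on Day 7. *Top2a* followed with -2.04 (-2.92 to -1.24). Over the whole gate *Foxp3* was read in 34.3% of barcodes on Day 7 and 10.99% on Day 14. At least 5 of the 14 proliferation genes were read together in 12 barcodes on Day 7, of which 7 held *Foxp3*. On Day 14 they were read together in 6 barcodes, of which 0 held *Foxp3*, a count too small to set apart from that share. These barcodes were deeper than the gate as a whole, with median UMIs of 3845.5 and 6257, and the part of depth in this count was not tested. *Stmn1* did not follow, with 272 and 307 CPM (0.17, -0.33 to 0.68). All other barcodes of the wound also had less *Mki67* on Day 14, at 49.7 and 17.2 CPM.

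Several cytotoxic effector genes and *Cd40lg* were higher on Day 14. Of 8 cytotoxic genes tested, 4 were 2-fold higher and 0 lower, with a median log2 ratio of 1.12. *Nkg7*, a protein of cytotoxic granules, was at 60.9 CPM in 11 barcodes on Day 7 and 396 CPM in 36 barcodes on Day 14 (2.70, 1.91 to 3.60). The chemokine *Xcl1* was read in 3 and 15 barcodes (2.66, 1.27 to 4.38) and the death ligand *Fasl* in 4 and 15 (2.07, 0.44 to 4.11). The size for *Xcl1* depended on the gate: it was 1.28 (0.40 to 2.23) with *Trbc1* also counted and 4.34 (3.44 to 5.42) with *Trdc* barcodes kept in. All other barcodes include the 50 *Trdc* barcodes of Day 14, of which 46 held *Nkg7* and 36 held *Xcl1*. The ratios in all other barcodes were 1.86 for *Nkg7*, 1.56 for *Xcl1* and -0.16 for *Fasl*. *Ccl5* differed less (0.69, 0.28 to 1.11), and was at 0.11 (-0.30 to 0.53) when *Trdc* barcodes were kept in, while the granule protease *Gzmb* did not share the direction (-0.84, -1.78 to 0.05). On Day 14, *Nkg7* was held by 13 of 32 barcodes with *Cd4* alone, 4 of 7 with *Cd8* alone and 18 of 51 with neither. It was thus not confined to barcodes with a *Cd8* read. The lineage of the 18 is not known from these reads.

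*Cd40lg*, the helper T cell ligand that activates dendritic cells and B cells, was at 40.6 CPM in 8 barcodes on Day 7 and 158 CPM in 25 barcodes on Day 14 (1.96, 0.92 to 3.13). On Day 14 it was held by 13 of 32 barcodes with *Cd4* alone, against 1 of 36 on Day 7. *Trat1*, an adaptor of the receptor complex, was read in 5 and 26 barcodes (2.26, 1.06 to 3.69), and *Cd7* in 7 and 17 (1.66, 0.58 to 2.85). In all other barcodes the ratios were 0.94 for *Cd40lg*, 3.27 for *Trat1* and 0.66 for *Cd7*. These again include the 50 *Trdc* barcodes of Day 14, of which 42 held *Trat1*, 44 held *Cd7* and 0 held *Cd40lg*. *Lck* (-0.01, -0.71 to 0.69) and *Cd5* (0.07, -0.43 to 0.57), both of receptor signalling, had intervals that held 0. Of the 17 genes tested on that list, 1 was 2-fold higher on Day 14 and 0 lower.

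Over all 3480 genes tested in the gate, 10.4% were 2-fold higher on Day 14 and 11.5% were 2-fold lower. The list counts below are to be read against these shares. Of 10 tissue residency genes tested 1 was 2-fold lower, of 8 naive and memory genes 1 was lower, and of 12 activation genes 1 was higher and 1 lower. These counts lay near the shares over all genes and did not set those lists apart. *Il7r*, the IL-7 receptor of naive and memory T cells, was at 710 and 494 CPM (-0.52) and was read in 71 and 48 barcodes. Of 4 checkpoint genes, 2 were lower, with a median log2 ratio of -1.07, of 3 CD8 lineage genes 2 were higher, with a median of 1.62, and of 9 chemokine receptors 2 were lower. Of 18 immediate early and heat shock genes, which cell dissociation can induce, 3 were 2-fold higher on Day 14 and 1 lower. Markers of other cells moved with the day as well: the neutrophil list was at a summed 527 CPM in the gate on Day 7 and 85.2 on Day 14, against 665 and 104 in all other barcodes. The keratinocyte list was at 4.06 and 192 CPM in the gate, against 119 and 1614 in all other barcodes, and the pericyte list at 32.5 and 230 CPM, against 362 and 302. Of the pericyte gene *Rgs5*, 0 UMIs were read on Day 7 and 34 on Day 14, of which 17 lay in 1 barcode. Of 6 dendritic cell genes 5 were 2-fold higher on Day 14 and 1 lower, and without the 12 barcodes of each day, chosen by these markers, 2 were higher and 0 lower. The part of these cells in the day differences was not tested beyond the values without those barcodes.

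By rule, the 10 highest and 10 lowest Day 14 to Day 7 ratios were taken among 286 genes that were at least 4-fold above all other barcodes and at least 100 CPM on their higher day. Besides *Nkg7*, *Xcl1*, *Trat1*, *Cd40lg* and *Cd7*, the highest were *Cd209d* (3.49), *Klrk1* (1.62), *Bcl2a1d* (1.6), *Orai1* (1.46) and *B4galnt1* (1.34). *Cd209d* rested on few barcodes, since 23 of its 32 UMIs on Day 14 lay in 1 barcode. *Klrk1*, the activating receptor NKG2D, was read in 6 barcodes on Day 7 and 23 on Day 14. The lowest were *Prc1* (-3.15), *Cenpf* (-3.05) and *Mgat5* (-2.99), each with 3 UMIs on Day 14, then *Mki67*, *Ddit4* (-2.37), *Top2a*, *Foxp3*, *Gm43305* (-1.97), *Prdm1* (-1.93) and *Myo1g* (-1.90). *Prdm1* encodes Blimp-1, a factor of effector and regulatory T cells, and was read in 29 and 8 barcodes. *Ddit4*, a stress-induced inhibitor of mTOR signalling, was read in 50 and 13 barcodes and was lower also in all other barcodes (-1.73). With the 12 barcodes of each day left out, the ratios of the named genes of both directions kept their sign, with *Nkg7* at 2.57, *Cd40lg* at 2.03 and *Foxp3* at -1.94.

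**Figure D4:**
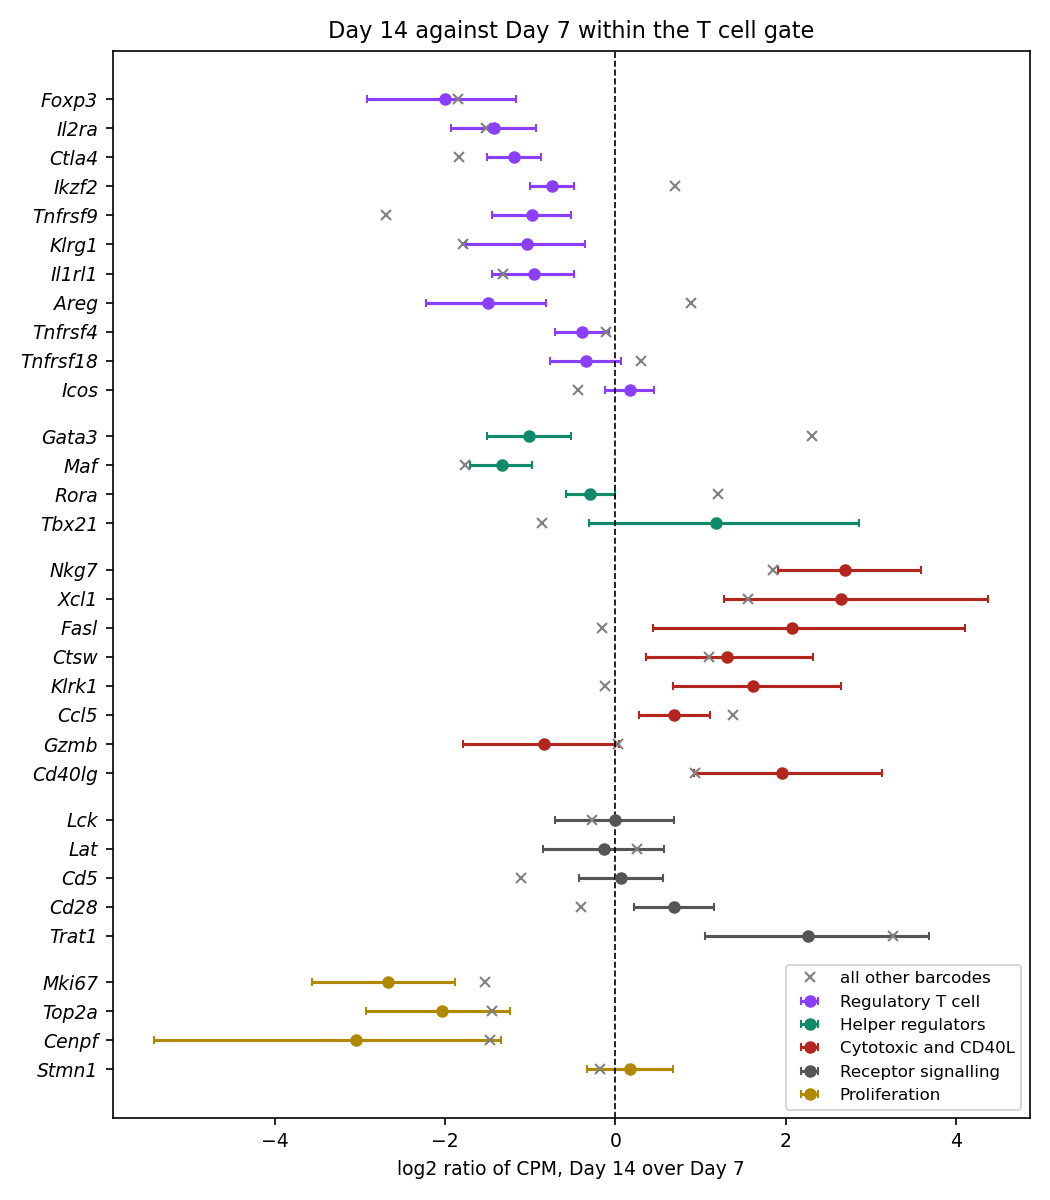
Log2 ratio of CPM, Day 14 over Day 7, within the T cell gate for genes of 5 groups (coloured points, 95% intervals for counting error) and in all other barcodes (grey crosses). The dashed line is the median of all genes tested, -0.01; most regulatory T cell genes, *Gata3* and *Mki67* lie left of it and *Nkg7*, *Xcl1*, *Fasl* and *Cd40lg* right of it.

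The comparison with *Trdc* barcodes bears on some of these genes. The same limits with at least 1 *Trdc* UMI in place of 0 gave 3 barcodes on Day 7 and 50 on Day 14, which held a median of 6 *Trdc* UMIs on Day 14, with 1 of 50 at a single UMI. In them *Nkg7* was at 2875 CPM on Day 14, *Xcl1* at 1949, *Cd7* at 1993 and *Trat1* at 1089, all above the gate (log2 gate over *Trdc* barcodes of -2.86, -3.93, -3.96 and -3.00). *Cd40lg* was at 0 UMIs there, which puts the gate at least 2.83 log2 units higher, and *Icos* (3.78, 2.83 to 4.93) and *Ctla4* (3.08, 2.06 to 4.33) were also higher in the gate. Thus *Cd40lg*, *Icos* and *Ctla4* separated the gate from the *Trdc* barcodes, while *Nkg7*, *Xcl1*, *Cd7* and *Trat1* were higher in the *Trdc* barcodes. How many gated barcodes of Day 14 had a *Trdc* transcript that was not captured was not tested. A further 64 barcodes on Day 7 and 71 on Day 14 held *Cd3* with neither *Trac* nor *Trbc2*, and delta segments were read in 2 and 23 of them.

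Gated barcodes with *Foxp3* were compared with the other gated barcodes, 35 with 67 on Day 7 and 10 with 81 on Day 14. *Foxp3* barcodes were deeper on Day 7, with median UMIs of 2769 against 1718, and alike on Day 14 (2316 and 2305). The other barcodes can thus hold cells whose *Foxp3* was not read. On Day 7, 411 of 3402 genes (12.1%) were at least 2-fold higher and 294 (8.64%) at least 2-fold lower. Of the other 14 genes of the regulatory T cell list tested on Day 7, 1 was 2-fold higher (*Nrp1*, a surface receptor, at 1.03) and 0 lower, with a median log2 ratio of 0.64, against 0.07 over all genes tested. On Day 7, *Ctla4* was at 1555 CPM against 843 (0.88, 0.53 to 1.24), *Il2ra* at 729 against 415 (0.82, 0.31 to 1.33) and *Tnfrsf4* at 1065 against 590 (0.85, 0.43 to 1.28).

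On Day 14, 415 of 3157 genes (13.1%) were at least 2-fold higher in *Foxp3* barcodes and 73 (2.31%) at least 2-fold lower, with a median of 0.18 over all genes tested. This split depends on the limits used, since the 10 *Foxp3* barcodes held only 27763 UMIs. Of these UMIs, 5803 and 4615 lay in 2 barcodes that were among the 12 with macrophage and dendritic cell markers. The Day 14 values of this paragraph include those 2 barcodes. A side with fewer than 3 UMIs counted as 3, which is 108 CPM there, so a gene needed 216 CPM in the other barcodes to be called lower, while 50 CPM in *Foxp3* barcodes let a gene in through its higher side. Of 11 other regulatory T cell genes tested, 7 were 2-fold higher and 0 lower, with a median of 1.61. *Il1rl1* was at 828 CPM in the 10 *Foxp3* barcodes against 159 in the others (2.38, 1.54 to 3.19), *Ikzf2* at 2053 against 671 (1.61, 1.14 to 2.07) and *Tnfrsf4* at 1549 against 478 (1.70, 1.14 to 2.23). *Ctla4* and *Ikzf2* were each read in 10 of the 10. The difference between the days in these gaps was not tested.

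Several other genes were lower in *Foxp3* barcodes. *Ccl5* was at 106 CPM in *Foxp3* barcodes against 499 on Day 7 (-2.24, -3.31 to -1.32) and at 180 against 585 on Day 14 (-1.70, -3.35 to -0.44). *Nkg7* had 1 UMI against 14 on Day 7 and 0 against 93 on Day 14, which with 3 UMIs in place of 0 gives a log2 ratio of -2.06 or lower. *Satb1*, a chromatin organiser of T cells, was lower on Day 7 (-1.72, -2.87 to -0.71) and had 1 UMI against 62 on Day 14, and *Tcf7*, a factor of naive and memory T cells, had 2 UMIs against 25 on Day 7 and 0 against 20 on Day 14. *Cxcr6* had a ratio of -1.32 (-2.39 to -0.37) on Day 7, or -0.72 (-1.83 to 0.30) without the 12 barcodes, and was at 0 against 53 UMIs on Day 14. Of the 6 cytotoxic genes tested on Day 7, 5 were 2-fold lower in *Foxp3* barcodes, with or without the 12 barcodes that carried macrophage and dendritic cell markers. On Day 14, 2 of 9 cytotoxic genes tested were 2-fold lower and 0 higher, with a median of -0.56, when the limit of 3 UMIs kept most single genes from a call. Summed over the cytotoxic list, the level was 365 CPM in *Foxp3* barcodes against 1272 in the others on Day 7, and 360 against 1850 on Day 14. Of the naive and memory list, 1 of 8 was 2-fold higher and 3 were lower on Day 7, with a median of -0.13.

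**Figure D5:**
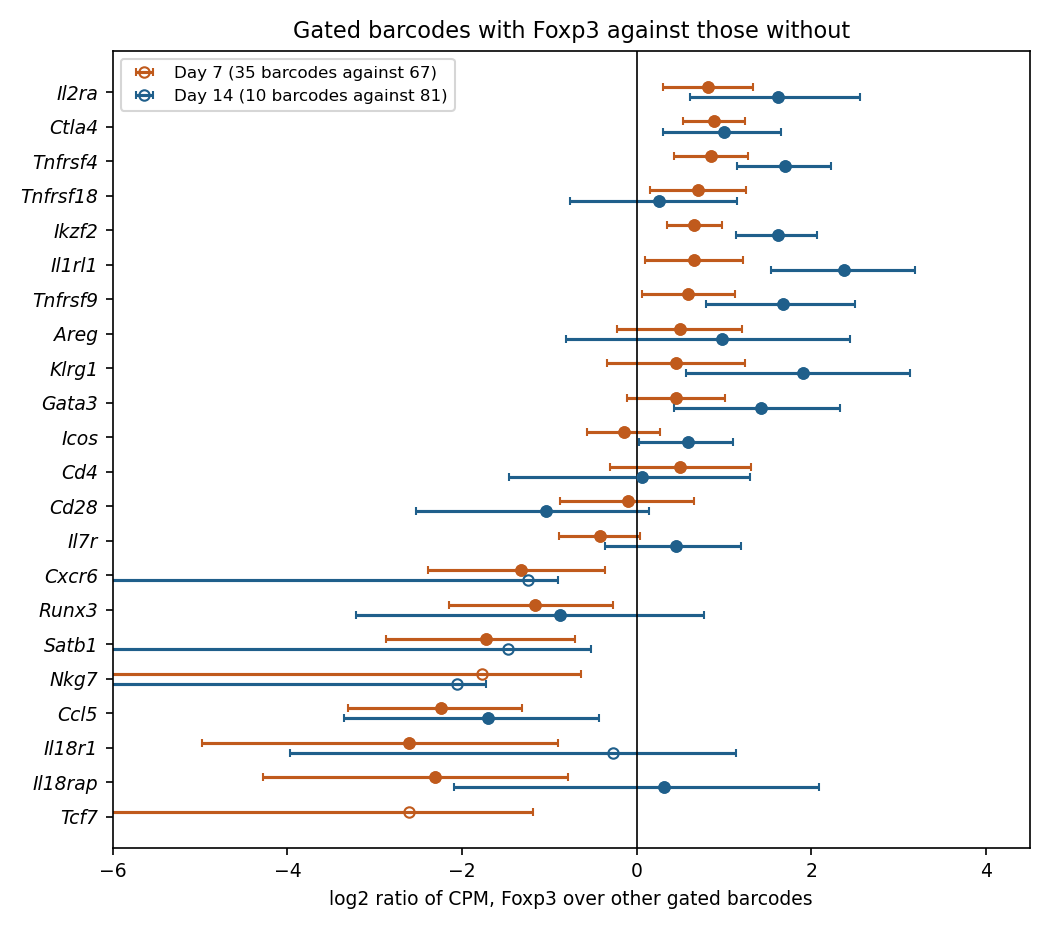
Log2 ratio of CPM, gated barcodes with *Foxp3* over those without, on Day 7 and Day 14, with 95% intervals for counting error that run on past the left edge where they reach it, and with open points where a side has fewer than 3 UMIs, counted as 3. *Ctla4*, *Il2ra*, *Tnfrsf4* and *Ikzf2* lie right of 0 on both days, and *Ccl5*, *Nkg7* and *Satb1* left of it.

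The 10 genes with the highest ratio of *Foxp3* to other gated barcodes, by the lower of both days among 1013 genes, included *Irf8*, *Rrad*, *Psmb9*, *Pcyt1a*, *Neb*, *Bcl3*, *Cyb5a*, *Ccl8* and *Pf4*. Of these, *Ccl8* and *Pf4* are macrophage genes and rested on single barcodes on Day 14, when 124 of the 125 *Ccl8* UMIs and 21 of the 22 *Pf4* UMIs of *Foxp3* barcodes lay in 1 barcode each. When the ranking was repeated without the 12 barcodes of each day, the 10 were *Pcyt1a*, *Cyb5a*, *M6pr*, *Cyfip2*, *Ddx24*, *Psma6*, *Il2ra*, *Arl5a*, *Cd47* and *Uba1*. *Il2ra* was the only member of the regulatory T cell list among them, with 1.05 on Day 7 and 1.35 on Day 14. *Pcyt1a*, an enzyme of phospholipid synthesis, and *Cyb5a*, an electron carrier in lipid metabolism, were in both rankings, with *Pcyt1a* at 1.67 and 1.55 in the second.

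*Cd8* barcodes were too few for a profile. Those that held *Cd8a* or *Cd8b1* and no *Cd4* numbered 3 on Day 7 and 7 on Day 14. Barcodes with *Cd4* alone numbered 36 and 32. Among the 7 of Day 14, 3 had at least 1% of UMIs from macrophage and dendritic cell markers. These 3 were deep, with 4615, 3557 and 3828 UMIs. On the *Cd4* side of Day 14, 5 of the 32 also reached that limit. The Day 14 ratios below include all of them, and their part in the ranking was not tested. Among 164 genes with enough UMIs, *Ccl5* had the highest ratio of *Cd8* to *Cd4* barcodes by the lower of both days, with 18 UMIs against 22 on Day 7 (log2 4.39) and 35 against 31 on Day 14 (2.39). It was read in 3 of the 3 *Cd8* barcodes of Day 7 and 5 of the 7 of Day 14. All gated barcodes of Day 14 at or above the 1% marker limit together held 9 UMIs of *Ccl5*. The noncoding RNA *Gas5* came next (2.24 and 0.97), and 5 of the remaining 8 were ribosomal protein genes. On the *Cd4* side the lowest ratios were those of *Ikzf2*, with 0 UMIs against 201 on Day 7 and 5 against 63 on Day 14, of *Jund*, *Zfp36l1* and *Ctla4*, the last with 0 against 147 and 2 against 42.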

How the data were processed

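Cells of 3 wound libraries (Days 3, 7 and 14) were captured in droplets and read from the 3′ end of each mRNA. The authors deposited tables of raw UMI counts per gene and cell barcode, made with Cell Ranger 6.0.0 on mm10 according to the submitters' processing notes, with no doublet removal stated in the sources used here. Groups were taken from the sample labels, with 1 library per day.

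From these counts, barcodes with at least 500 UMIs, 200 genes and at most 10% mitochondrial UMIs were kept and the T cell gate was applied. The Day 7 and Day 14 libraries held 120940799 and 112713257 UMIs in all. UMIs were summed over barcodes and scaled to CPM. A gene was tested with at least 50 CPM in either set and 10 UMIs in all, and called at 2-fold. A side with fewer than 3 UMIs was set to 3. No p-value was computed, since barcodes of 1 library are not replicates. For shares, barcodes were also thinned at random to 1000 UMIs.

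Named genes were the markers, the members of 30 lists, and the 10 most extreme genes of each ranking: gate over other barcodes, Day 14 over Day 7 (genes at least 4-fold above other barcodes and at least 100 CPM), *Foxp3* over other gated barcodes, and *Cd8* over *Cd4* barcodes (at least 20 UMIs). Members and lists were chosen with earlier results of these data known. Of 319 list genes, 313 were measured. A few genes are not reported here.

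In 12 variations, results were recomputed with other limits on mitochondrial UMIs, genes, *Cd3*, macrophage and fibroblast UMIs, with *Trdc* not used, with removal of barcodes by a doublet score (simulated doublets, 50 neighbours), thinning to 500 UMIs, and other scalings and filters. A further 2 were added after seeing the data: counting *Trbc1*, and leaving out gated barcodes of at least 1% macrophage and dendritic cell marker UMIs. On simulated Poisson counts, the kind of count the ratio intervals assume, they held the true value for 95.5% of changed genes (Day 14 over Day 7). The simulation had no gathering of UMIs in single barcodes, so it does not show how the intervals cover such genes. Python 3.11.15, numpy 2.4.6, scipy 1.17.1, pandas 2.3.3, scikit-learn 1.9.0 and matplotlib 3.10.9 were used.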

Additional observations from a re-analysis of the deposited data

Results flagged for a closer look

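For 7 genes the ratio of the T cell gate to all other barcodes had opposite signs on Day 7 and Day 14, with intervals that did not hold 0, and with 1 library per day the difference was not tested. The MHC class II genes were lower in the gate on Day 7 and higher on Day 14: *Cd74* had log2 ratios of -1.02 and 0.79, *H2-Ab1* of -0.80 and 0.94, *H2-Eb1* of -1.29 and 0.79, and *H2-Aa* of -1.07 and 0.69. *Tyrobp*, a signalling adaptor of myeloid and NK cells, had -1.32 and 0.73, and the chemokine *Ccl4* had -0.71 and 1.14. The heat shock gene *Hspa1b* went the other way, with 0.29 and -0.44. Without the 12 gated barcodes of each day with at least 1% of UMIs from macrophage and dendritic cell markers, *Cd74* was at -3.08 and -3.57, *H2-Ab1* at -3.32 and -3.90, *Tyrobp* at -3.18 and -0.04, *Ccl4* at -1.29 and -0.52 and *Hspa1b* at 0.31 and -0.81. The barcodes left out were chosen by markers of the cells that carry class II genes, so the lower ratios of those genes follow from that choice. *H2-Eb1* was then at -4.46 and -3.95 and *H2-Aa* at -3.96 and -3.49.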

How the results depend on the processing

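Of 200 summary values over all alternatives, 181 stayed within the 95% interval of the main value or, for counts of genes, within 1.5 times of it, and 19 did not. These limits are wide for small counts: without barcodes rich in macrophage and dendritic cell markers, *Cd8* after thinning on Day 14 was 2.74% in place of 7.06% and still inside. Of the single genes, 356 values stayed inside and 8 did not. Those at a minimum of 20 CPM repeat the main values, since that filter cannot alter a ratio. Leaving out the 50 most abundant genes shifts all ratios alike, so neither setting checks single genes. With at least 2 *Cd3* UMIs the gate held 0.362% and 0.504% of barcodes, and with *Trdc* not used it held 0.974% on Day 14, a log2 ratio of shares of 1.00, with log2 Day 14 over Day 7 of 3.99 for *Nkg7*, 3.88 for *Cd7*, 0.11 for *Ccl5*, -0.40 for *Icos*, -0.75 for *Cd4*, -0.98 for *Il7r* and -1.69 for *Ctla4*. *Klrk1* was at 3.1 with at most 5% mitochondrial UMIs. Inside its interval, *Cd4* changed sign, from -0.15 to 0.20, with mean CPM per barcode. After thinning, *Cd8* was at 0 and 2.50% with at most 5% mitochondrial UMIs, and at 0 on Day 7 with *Trbc1* also counted, which left 1 type 2 gene lower. Thinning to 500 UMIs gave *Cd4* in 5.88% and 9.89% and *Foxp3* in 10.8% (5.51 to 18.5) on Day 7 and 5.49% (1.81 to 12.4) on Day 14. Without the 50 most abundant genes 794 genes were lower on Day 14, with 11 regulatory T cell and 7 proliferation genes; averaging the CPM of each barcode left 3 regulatory T cell genes. A minimum of 20 CPM gave 1698 and 1763 genes higher than in other barcodes, and 575 higher and 775 lower on Day 14. The alternatives without barcodes rich in macrophage and dendritic cell markers and with *Trbc1* were chosen after seeing the data. No paired analysis was possible because each day is 1 library. Counting error limits genes under about 10 UMIs, and most cytokines lie there.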

Other observations

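*Zbtb16*, which encodes PLZF, a factor of innate-like T cells, was read in 9 gated barcodes on Day 7 and 7 on Day 14. On Day 7 these were 0 of 36 barcodes with *Cd4* alone and 9 of 62 with neither co-receptor, and on Day 14 they were 1 of 32 and 6 of 51. Barcodes with *Cd4* alone were the deeper ones, with median UMIs of 3001.5 against 1525.5 on Day 7 and 2450.5 against 1964 on Day 14.

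Barcodes that held *Cd3* with neither *Trac* nor *Trbc2*, whether or not *Trdc* was read, numbered 64 on Day 7 and 71 on Day 14, of which 16 and 25 held *Trbc1* and 8 and 6 held *Cd4*.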
